A study of Mus musculus with 4 samples.

Results

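The cytoplasmic ribosomal protein genes of mouse chondrocytes were taken from the deposited tables by their symbols: those that read Rpl or Rps followed by a number, with at most a short suffix, together with Rplp0, Rplp1, Rplp2 and Rpsa. This gave 79 genes of the 55141 genes in the table of TPM (length-scaled transcript abundance with a fixed total per library), of which 48 belong to the large and 31 to the small subunit. Pseudogenes with -ps names were left out. A further 6 genes, Rpl34 among them, share their symbol field with another name and did not meet the rule, and their values are given apart.

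RNA was sequenced from cultured articular chondrocytes of the femoral heads of C57BL/6 mice (C57BL6/J in the label of the mimic library) at 3 weeks of age, released with 3.5 mg/ml collagenase and grown in serum. There was 1 library for each of 4 conditions. The wild type library stood against a miR-26a KO library (miR-26a -/- mice) and a Cart-miR-23clus KO library, in which Col2a1-cre deleted the floxed miR-23a and miR-23b clusters in cells that use the type II collagen promoter. In the fourth library, miR-26a KO chondrocytes had been transfected with a synthetic miR-26a mimic, and it is not stated if the untransfected or the control-transfected state was used for miR-26a KO. The study's methods use mice with floxed clusters and no Cre as Control, whereas the labels call the library wild type, so its floxed alleles are not known here. The number of mice behind each library was not given in the sources used here. A single library stood for each condition, which allows no test, so all intervals below are exact 95% intervals of counted reads and cover counting error only.

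Ribosomal proteins and ribosomal RNAs build the small subunit, which decodes the mRNA, and the large subunit, which forms the peptide bond. Their mRNAs are short, abundant and stable, and they begin with a run of pyrimidines (the terminal oligopyrimidine or TOP motif) through which mTORC1 signalling controls their translation together. Cartilage cells that secrete much matrix depend on this supply, and reduced dosage of several of these genes causes Diamond-Blackfan anaemia, in which skeletal defects occur.

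The reads of each library on genes numbered from 1336496 to 1505805. Reads of the mimic library were recovered from its TPM values, since no count table for it was used here. All 17 chondrocyte markers were detected in every library, endothelial markers summed to at most 2.15 TPM and the 6 erythroid markers had 0 reads in each library. The libraries were not alike in other cells' genes, and the values that bear on the ribosomal protein genes stand beside the results.

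Of the 79 genes, 77 had reads in all 4 libraries, 74 had 20 or more in each and 67 had 100 or more in each. Rpl3l, the paralogue of Rpl3 used in striated muscle, and Rpl10l, the paralogue of Rpl10 used in testis, had 0 reads in each library. In the shallowest library, 0 reads allowed up to 0.000224% of all reads on genes. Median levels of the 79 genes were 1016 TPM in wild type, 872 TPM in miR-26a KO, 857 TPM in Cart-miR-23clus KO and 935 TPM in the mimic library. They filled 18 of the 50 highest TPM levels in wild type, 16 in miR-26a KO, 14 in Cart-miR-23clus KO and 16 in the mimic library.

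**Figure D1:**
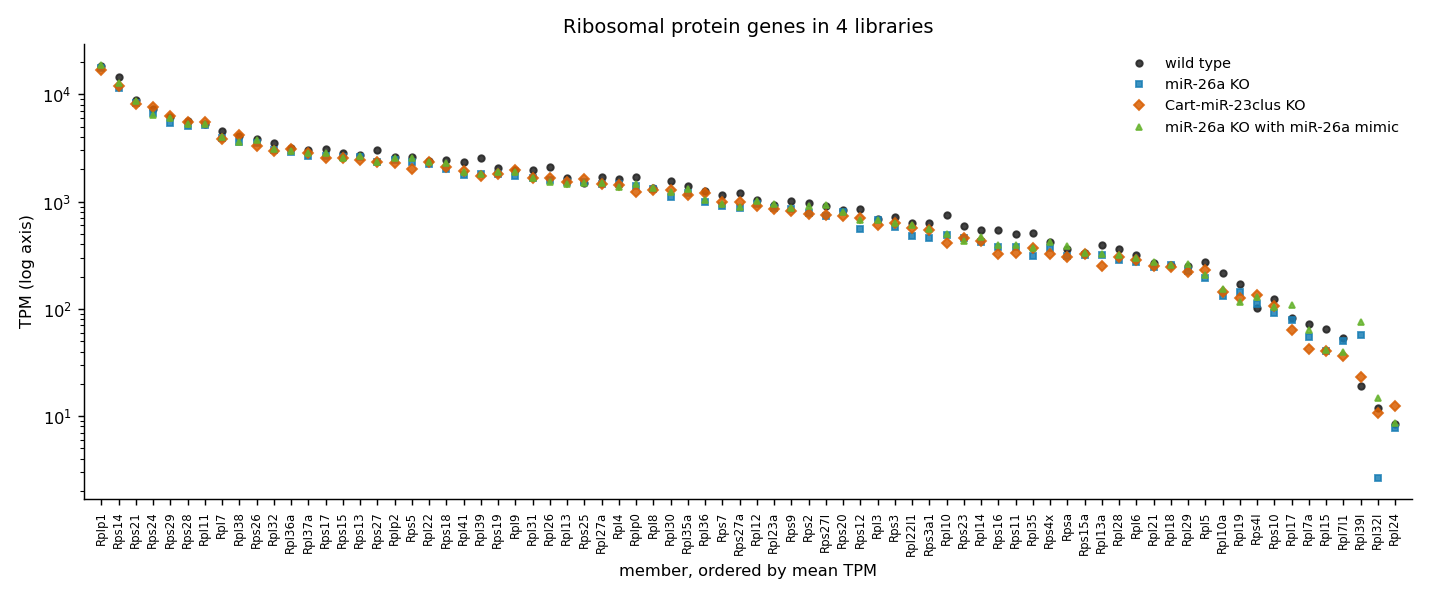
TPM levels (log axis) of 76 of the 77 ribosomal protein genes with reads, ordered by their mean over the 4 libraries, with 1 symbol per library. The means ran from 17963 TPM (Rplp1) to 9.35 TPM (Rpl24), and wild type held the highest level of 59 of the 77 genes.

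To show what was removed from these cells, the mature miRNAs of the deleted clusters and of miR-26a are printed 5′ to 3′ as RefSeq gives them on GRCm38.p6, with the seed (bases 2 to 8) in capitals. miR-27a-3p and miR-27b-3p share a seed, and miR-23b-3p belongs to the same clusters.
miR-23a-3p (chr8:84208563-84208583, + strand): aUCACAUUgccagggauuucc
miR-27a-3p (chr8:84208727-84208747, + strand): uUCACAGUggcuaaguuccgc
miR-27b-3p (chr13:63300760-63300780, + strand): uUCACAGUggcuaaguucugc
miR-24-3p (chr8:84208875-84208896, + strand): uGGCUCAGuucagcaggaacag
miR-26a-5p (chr9:119031811-119031832, + strand): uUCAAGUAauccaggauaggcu

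Sites complementary to these seeds were scarce in the ribosomal protein genes, whose 3′ UTRs were short. Over the 77 genes with a protein-coding principal transcript in GENCODE, the median annotated 3′ UTR was 68 bases, against 682 bases over 21674 protein-coding genes. At least 1 of the seed matches AATGTGA (miR-23a-3p), ACTGTGA (miR-27a-3p and miR-27b-3p), CTGAGCC (miR-24-3p) and TACTTGA (miR-26a-5p) stood in the 3′ UTR of 7 of the 77 genes (9.09%), against 33.9% of all protein-coding genes. Per kilobase of 3′ UTR, the matches to miR-23a-3p numbered 0.0879 in ribosomal protein genes and 0.128 in all genes. Those to miR-27a-3p and miR-27b-3p numbered 0.044 and 0.129, those to miR-24-3p 0.22 and 0.1385, and those to miR-26a-5p 0.044 and 0.0749. The matches in ribosomal protein genes were 2, 1, 5 and 1, so these densities rest on few sites.

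The first match is given for 6 of the 7 genes with its flanking bases on the mRNA strand, and the capitals mark the match. They are members whose annotated 3′ UTR could pair with a deleted or transfected miRNA by these letters. Those 3′ UTRs had 4722 bases in Rps15a, 3167 in Rps20, 1173 in Rps24, 1009 in Rpl5, 638 in Rpl27a and 91 in Rps29. For Rps24 the authors' TPM implied a transcript of 461 bases, shorter than that 3′ UTR.
Rpl5 (miR-23a-3p): ccagcaaagatAATGTGAcgatactaaga
Rps29 (miR-23a-3p): caaagaataaaAATGTGAagaactttaa
Rpl27a (miR-27a-3p and miR-27b-3p): tttgtaagcttACTGTGAtggacaggtag
Rps15a (miR-24-3p): aaagcatgagcCTGAGCCttcatgcctgg
Rps24 (miR-24-3p): gctcttacctgCTGAGCCatctccctagc
Rps20 (miR-26a-5p): atggtatgagtTACTTGAaaggactctga

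In the comparison of Cart-miR-23clus KO with wild type, 5 genes with a match to a clustered miRNA had TPM ratios of 0.832 (Rpl5), 1.026 (Rps29), 0.858 (Rpl27a), 0.986 (Rps15a) and 1.045 (Rps24). None of these 5 ratios lay above 1 by its counting interval, and 2 of them (Rpl5 and Rpl27a) lay below 1. Rps20, which holds the miR-26a-5p match, had a TPM ratio of 0.959 (0.912 to 1.01) when miR-26a KO was set against wild type and 1.002 (0.951 to 1.055) after the mimic. A match is a run of letters in the annotated transcript and was not tested as a target site.

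Rplp1 had the highest level in every library. It is a phosphoprotein of the stalk, the flexible arm of the large subunit that recruits elongation factors, and it lies at chr9:61913284-61914542 (GRCm38). It had 9499 reads in wild type, 8408 in miR-26a KO, 8042 in Cart-miR-23clus KO and 9619 in the mimic library. Its levels were 18221, 17712.5, 16984 and 18933 TPM in the same order, so it was highest after the mimic and lowest in Cart-miR-23clus KO. Its TPM ratio to wild type was 0.932 (0.905 to 0.96) in Cart-miR-23clus KO and 0.972 (0.944 to 1.001) in miR-26a KO.

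The other high members by TPM belonged to the small subunit. Rps14, a protein of the platform whose human gene is lost in a form of myelodysplastic syndrome, had 14618 TPM in wild type, 11483 in miR-26a KO, 11946 in Cart-miR-23clus KO and 12857 in the mimic library. Wild type stood above the 3 other libraries. Rps21 had 8947, 8303, 8217 and 8608 TPM in that order of libraries. Rps24, whose loss of dosage causes Diamond-Blackfan anaemia, had 7240, 6670, 7565 and 6421 TPM, and here Cart-miR-23clus KO was the highest. Rps29, another gene of that disease, had 6187, 5426, 6350 and 6057 TPM, again with Cart-miR-23clus KO highest. Rps14 and Rps21 were thus highest in wild type, and Rps24 and Rps29 were not.

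Rpl24, Rpl32l and Rpl15 were among the members with low levels. Rpl24, a large subunit protein at a bridge to the small subunit, had 6 reads in wild type, 5 in miR-26a KO, 8 in Cart-miR-23clus KO and 6 in the mimic library, or 8.48, 7.76, 12.45 and 8.705 TPM. Of the 75-base runs in the last 300 bases of its transcript, 79.2% were also found in other genes. Rpl32l, which GENCODE annotates as a processed pseudogene, had 5, 1, 4 and 6 reads. Rpl15, a large subunit protein, had 131 reads in wild type, divided by a length of 1922 bases. It had 65.2 TPM in wild type, 40.5 in miR-26a KO, 40.0 in Cart-miR-23clus KO and 40.9 in the mimic library. All 3 other libraries of Rpl15 thus sat below wild type and close to each other.

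A level in TPM depended on the length the authors divided by. The lengths implied by their reads and TPM equalled, within 0.5 bases, the length of 1 annotated transcript for 77 of 77 ribosomal protein genes, and for 33 of them this was the longest transcript. The lengths ran from 367 bases (Rps14) to 5179 bases (Rps15a), with a median of 774 bases, whereas a 3′ library gives about 1 read per molecule whatever its length. Rps20 therefore had 3209 reads in wild type, close to Rps24 with 3487, but 829 TPM against 7240 TPM, since its length was taken as 3706 bases. Across the 77 genes the Spearman correlation of TPM with reads in wild type was 0.863, a description of 1 library. The length cancels in a ratio between libraries.

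Reads were also split between ribosomal protein genes and their copies. Of the 75-base runs in the last 300 bases of the principal transcript, at least 1 was shared with another gene in 54 members and none in 23. Rpl10, Rpl36a, Rpl9, Rps12 and Rps27 shared all of theirs, so that a read of 75 bases from those windows had no single place by sequence. The 286 genes named as -ps pseudogenes of 57 members held 4436 reads in wild type, 4024 in miR-26a KO, 3724 in Cart-miR-23clus KO and 4206 in the mimic library, or from 0.279% to 0.295% of the reads. The most read of these were Rps13-ps2 (412, 463, 365 and 442 reads in that order), Rps10-ps1 (401, 357, 355 and 422), Rpl31-ps8 (281, 250, 242 and 271), Rpl38-ps2 (228, 147, 168 and 162) and Rpl14-ps1 (210, 228, 194 and 210).

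For 2 members the pseudogenes held more wild type reads than the gene itself. Rps10, a small subunit protein of the head, had 114, 77, 90 and 94 reads on the gene and 424, 390, 380 and 446 on its pseudogenes. Rpl7a had 69, 47, 37 and 59 reads on the gene and 205, 180, 207 and 193 on its pseudogenes. How the authors' counting divided reads between a gene and its copies was not tested, so the levels of such members are uncertain. The median wild type reads were 1337 for members without shared runs and 927.5 for members with them, whereas their median wild type levels were 722.4 and 1296 TPM.

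Members were also compared by what stands at their RefSeq transcription starts, where the TOP motif begins. RefSeq windows on GRCm38.p6 were found for 59 of the 79 genes. CTTTC or CTTCC, short pyrimidine runs, stood between 10 bases before and 50 after the start on the sense strand in 40 of the 59 genes (67.8%), against 20.7% of 27025 genes. CCGGAAG, a binding motif of ETS factors searched on both strands from 250 bases before to 50 after the start, stood in 23 of the 59 (39.0%), against 9.93% of the same genes. The second motif read on the other strand begins with CTTCC, so a single stretch can count for both.

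The windows that follow run from 10 bases before to 20 after the start, with the pyrimidine motif in capitals. They belong to the members with the 4 lowest and 4 highest ratios to wild type in Cart-miR-23clus KO or miR-26a KO on 100 or more reads, as far as a window was written for them.
Rpl10 (chrX:74270806-74270835, + strand): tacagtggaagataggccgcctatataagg
Rps16 (chr7:28350679-28350708, + strand): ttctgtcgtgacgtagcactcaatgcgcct
Rpl13a (chr7:45128726-45128755, - strand): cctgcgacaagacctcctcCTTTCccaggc
Rpl35 (chr2:39005112-39005141, - strand): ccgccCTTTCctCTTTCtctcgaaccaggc
Rps12 (chr10:23787190-23787219, - strand): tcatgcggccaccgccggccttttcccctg
Rps25 (chr9:44407704-44407733, + strand): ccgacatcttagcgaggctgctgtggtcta
Rpl11 (chr4:136053374-136053403, - strand): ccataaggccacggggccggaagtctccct
Rpl18 (chr7:45718061-45718090, + strand): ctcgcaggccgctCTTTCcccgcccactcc
Rpl13a, Rpl35 and Rpl18 hold the letters within these bases and Rpl11 in a stretch that reaches past them, while Rpl10, Rps16, Rps12 and Rps25 have none of them in the stretch searched.

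The share of reads on the 79 genes was highest in wild type. It was 6.77% in wild type (101908 reads, interval 6.73 to 6.81%), 5.95% in miR-26a KO (81510 reads, 5.91 to 5.99%), 6.13% in Cart-miR-23clus KO (81895 reads, 6.09 to 6.17%) and 6.30% in the mimic library (91354 reads, 6.26 to 6.34%). None of the 4 intervals overlapped. Over the genes of the TPM table alone, the base that the mimic library has, the shares were 6.80, 5.98, 6.17 and 6.30%. On that base the share in Cart-miR-23clus KO was 0.907 times that in wild type (0.8985 to 0.915), and the share in miR-26a KO was 0.8795 times it (0.871 to 0.888). The mimic library held 1.05 times the share of miR-26a KO (1.04 to 1.06) and 0.927 times that of wild type (0.919 to 0.935).

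Both subunits had the same order of libraries. The large subunit took 3.58% of the reads in wild type, 3.17% in miR-26a KO, 3.22% in Cart-miR-23clus KO and 3.33% in the mimic library. The small subunit took 3.19, 2.78, 2.91 and 2.98% in that order. In summed TPM the 79 genes made up 15.7, 13.7, 14.0 and 14.45% of the total. A share depends on what else was sequenced, and fewer cells that make much ribosomal protein cannot be told apart from less of these mRNAs per cell.

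**Figure D2:**
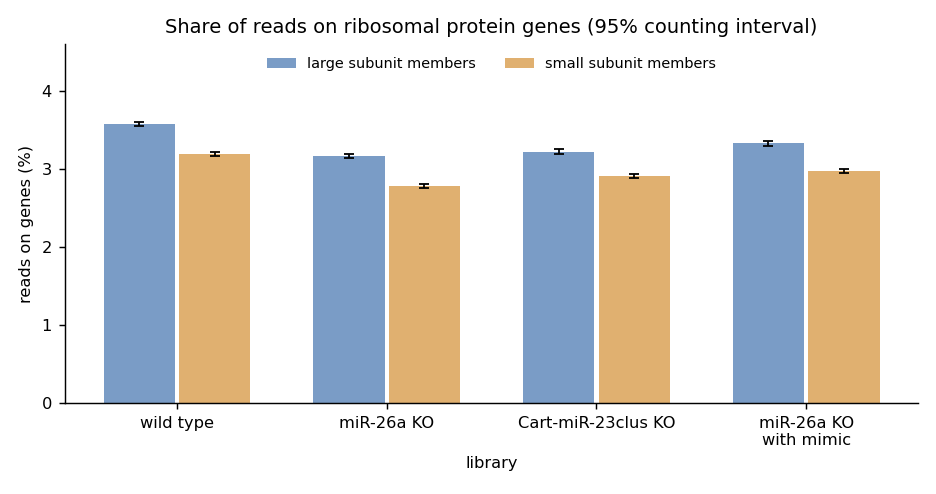
Share of the reads on genes (%) taken by large and small subunit genes in each library, with bars from 0 and error lines for the 95% counting interval. Both bars are tallest in wild type, at 3.58% and 3.19%, and lowest in miR-26a KO, at 3.17% and 2.78%.

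Other gene groups differed between the same libraries. Genes of the mitochondrial genome took 4.52% of the reads in wild type, 4.74% in miR-26a KO, 5.97% in Cart-miR-23clus KO and 4.66% in the mimic library. Gm42418, a gene that overlaps ribosomal RNA, took 0.46% in wild type, 0.499% in miR-26a KO and 0.614% in Cart-miR-23clus KO. The 10 osteoblast markers summed to 12753 TPM in wild type, 6691 in miR-26a KO, 3883 in Cart-miR-23clus KO and 7557 in the mimic library, and Col1a1 alone took 2.60, 1.11, 0.552 and 1.33% of the reads. The 12 macrophage markers summed to 1081, 395, 1329 and 734 TPM, and the 8 adipocyte markers to 167, 168, 751 and 171 TPM. The 17 chondrocyte markers summed to 18101, 13096, 12480 and 13051 TPM. The 32 cell cycle genes summed to 396 TPM in wild type and to 801, 773 and 851 TPM in the other libraries. Their part in the lower ribosomal protein levels was not tested.

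The comparison of Cart-miR-23clus KO with wild type asks what the loss of the miR-23a and miR-23b clusters does to the chondrocyte transcriptome. Of the 79 genes, 74 had 20 or more reads in both libraries, and 68 of these 74 had a lower TPM in Cart-miR-23clus KO. Their median log2 ratio was -0.22 (quartiles -0.34 and -0.125), a ratio of 0.857, against a median of -0.01 over the 6935 genes with as many reads. The TPM ratio was below 0.8 for 21 of the 74 (28.4%), where 21.1% of all genes lay, and above the inverse of 0.8 (1 divided by 0.8) for 1 of the 74, where 20.2% of all genes lay. At 1.5-fold, 5 of the 74 were lower, against 7.93% of all genes, and 0 were higher, against 8.23%. None of the 74 passed 2-fold in either direction, against 3.53% of all genes. The counting interval of the ratio lay below 1 for 52 of the 74 genes, against 13.0% of all genes, and above 1 for 1 of them, against 12.7%. More reads give narrower intervals, and the 79 genes are among the most read.

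**Figure D3:**
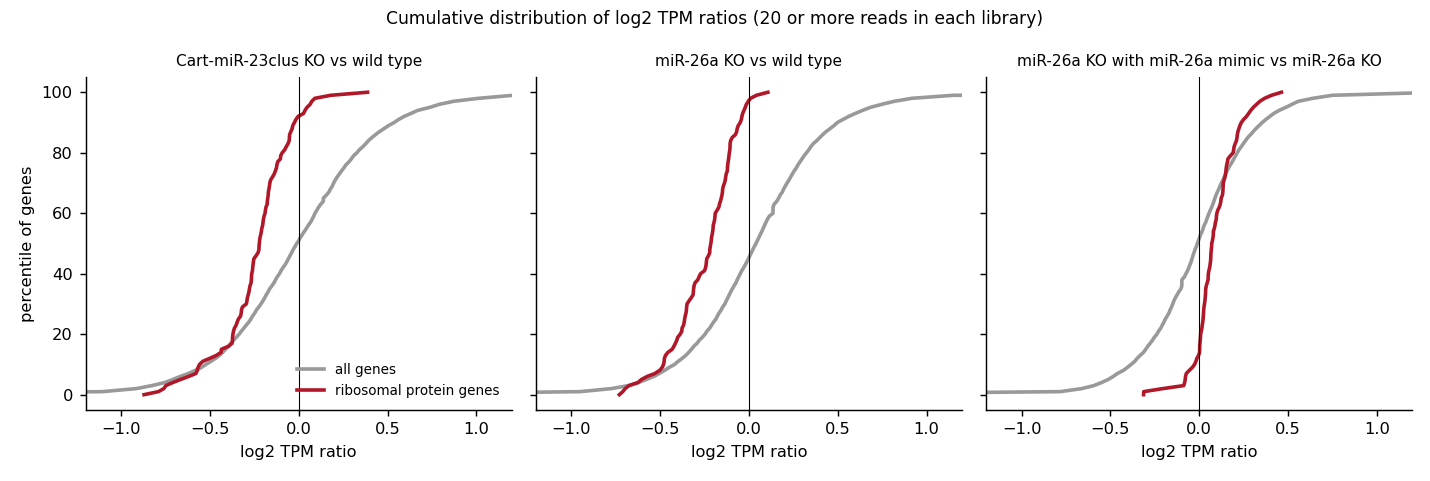
Cumulative distribution of log2 TPM ratios in the 3 comparisons, for all genes (grey) and for ribosomal protein genes (red) with 20 or more reads in both libraries. The red curves are steeper than the grey ones and cross them in each panel. In both comparisons with wild type they lie to the left apart from stretches toward the low end (medians -0.22 and -0.21), and after the mimic they lie to the right in the lower part and at the median (0.07) and to the left toward the high end.

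The spread among ribosomal protein genes was narrower than among genes at large. The SD of their log2 ratios in this comparison was 0.21, against 0.46 over all genes, and over genes with 100 or more reads it was 0.20 for 68 ribosomal protein genes against 0.40 for 2175 genes. Counting alone would give a median SE of 0.07 per member. The 43 large subunit genes tested had a median ratio of 0.856 and the 31 small subunit genes one of 0.86.

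Rpl10, the X-linked large subunit protein that joins late near the peptidyl transferase centre, had the lowest ratio of all members tested. It had 626 reads in wild type, 371 in miR-26a KO, 311 in Cart-miR-23clus KO and 407 in the mimic library, or 749.9, 488, 410 and 500.3 TPM. All 3 other libraries thus lay well below wild type. Its ratio in Cart-miR-23clus KO was 0.547 (0.476 to 0.628). All of its 75-base runs were shared, and 105, 87, 69 and 83 reads lay on its pseudogenes in the same order of libraries, so the values of Rpl10 are uncertain.

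The next ratios are given for members with 100 or more reads in both libraries. Rps16, a small subunit protein near the decoding site, had 546 TPM in wild type, 377 in miR-26a KO, 323 in Cart-miR-23clus KO and 396 in the mimic library, and shared none of its runs with another gene. Its ratio in Cart-miR-23clus KO was 0.591 (0.517 to 0.676). Rpl13a, which outside the ribosome silences inflammatory mRNAs in the interferon response, had 390.4, 316, 249.6 and 327 TPM in the same order. Its ratio was 0.6395 (0.545 to 0.7495), and it too had no shared run. Rpl10a, a large subunit protein of the L1 stalk, had 214.5, 132, 143.5 and 153 TPM. Its ratio was 0.669 (0.525 to 0.8496) on 113 and 186 reads. For each of these genes wild type stood above all 3 other libraries.

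Rps4l, Rps25, Rpl11 and Rps24 had the highest ratios, all above 1. Rps4l, a retrocopy of Rps4x that GENCODE annotates as a pseudogene, had 102.5 TPM in wild type, 110.4 in miR-26a KO, 134 in Cart-miR-23clus KO and 128 in the mimic library. Its ratio of 1.31 (0.996 to 1.72) was the single ratio above the inverse of 0.8, and its interval reached below 1. Rps25, a small subunit protein needed by some viral internal ribosome entry sites, had 1499, 1519, 1611 and 1506 TPM, with a ratio of 1.075 (1.009 to 1.144). Rpl11, which with Rpl5 and the smallest ribosomal RNA can bind Mdm2 and stabilise p53, had 5277, 5219, 5562 and 5337 TPM, with a ratio of 1.054 (0.9945 to 1.117). Rps24 had a ratio of 1.045 (0.996 to 1.096). Rpl5 did not stand with Rpl11: its TPM was 276 in the wild type library and 229 with the clusters deleted, a ratio of 0.832 (0.734 to 0.942).

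**Figure D4:**
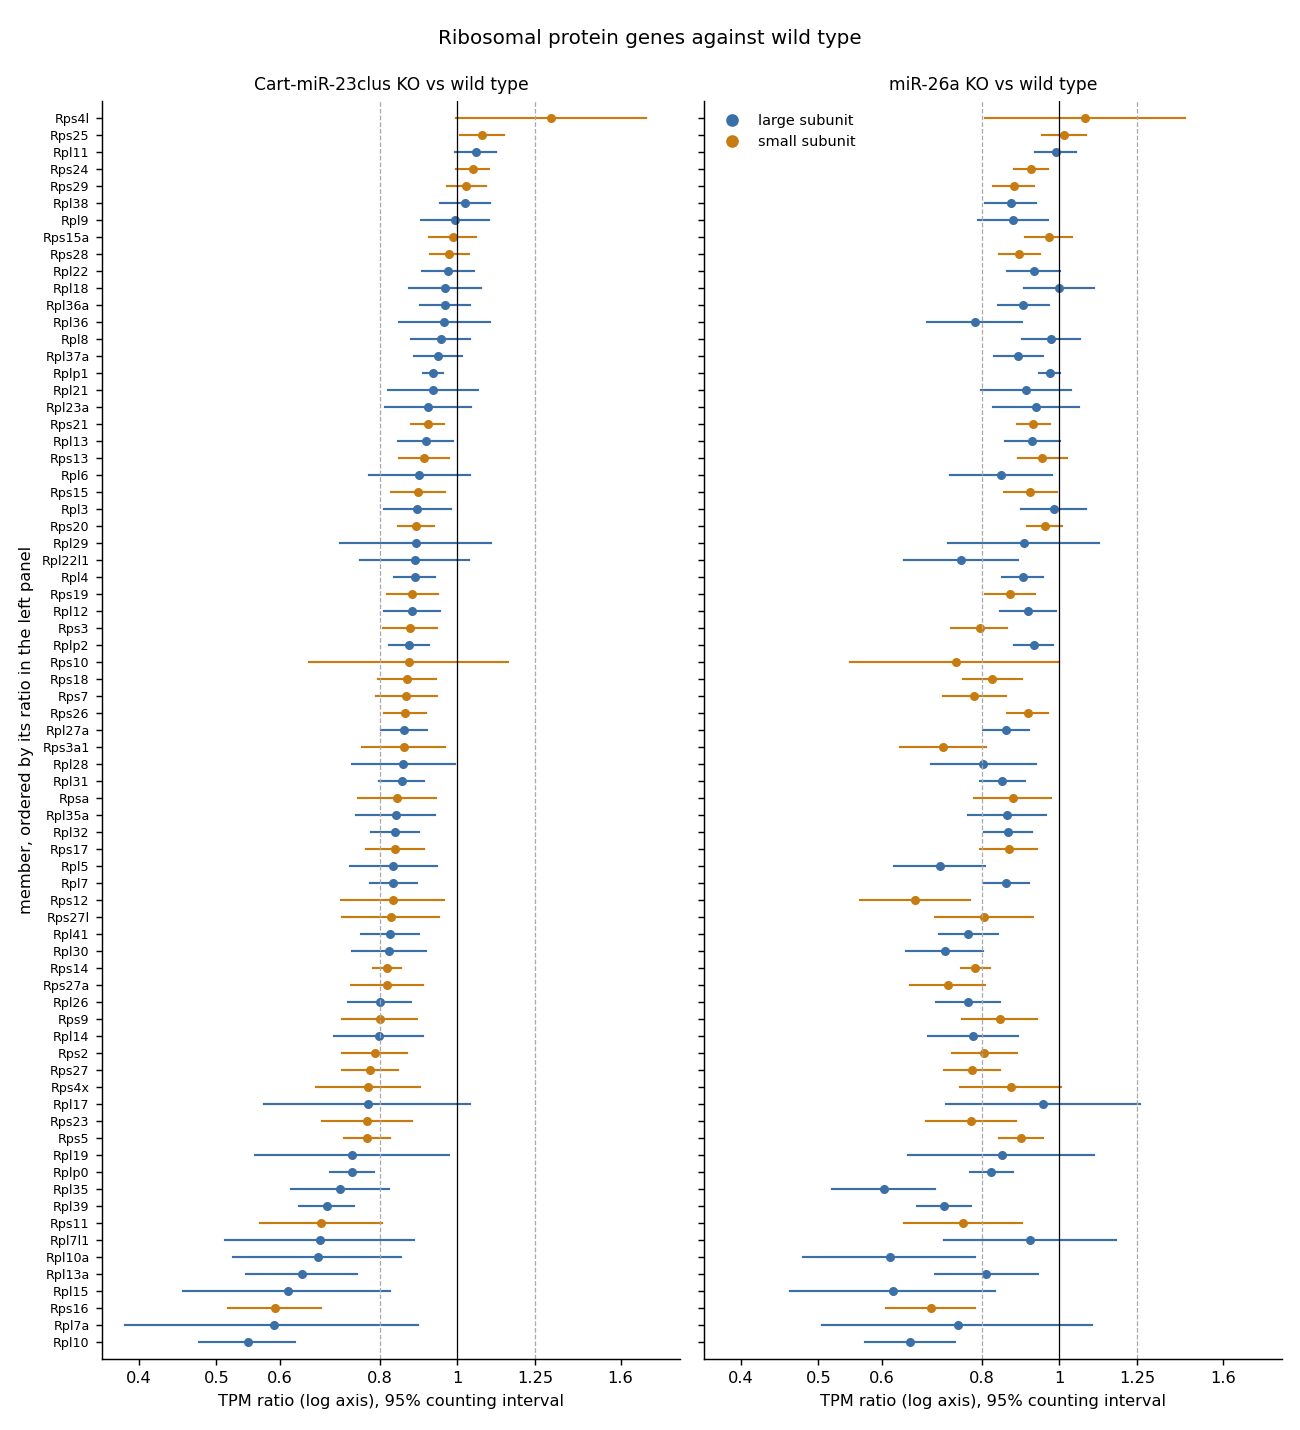
TPM ratio to wild type (log axis) of 73 of the 74 ribosomal protein genes with 20 or more reads in both libraries, in Cart-miR-23clus KO (left) and miR-26a KO (right), with lines for the 95% counting interval, blue for the large and orange for the small subunit. Dashed lines mark 0.8 and its inverse. In both panels most points lie left of 1, and the same wild type library is the base of both.

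Among the 6 genes whose symbol field holds several names, Rpl34, a large subunit protein, stood apart. It had 4425 TPM in wild type, 3711 in miR-26a KO, 2462 in Cart-miR-23clus KO and 3951 in the mimic library. Its ratio in Cart-miR-23clus KO was 0.556 (0.522 to 0.593) on 1458 and 2885 reads, close to that of Rpl10 at a much higher level. The 5 others had ratios from 0.642 (Rps6, 21 and 36 reads) to 0.947 (Rpl27). Rpl34 was singled out after its values were seen.

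The comparison of miR-26a KO with wild type uses the same wild type library, so its ratios are not independent of those above. Again 74 of the 79 genes had 20 or more reads in both libraries, and 72 of the 74 had a lower TPM in miR-26a KO. The median log2 ratio was -0.21 (quartiles -0.36 and -0.12), a ratio of 0.862, against 0.04 over 7028 genes. The TPM ratio was below 0.8 for 24 of the 74 (32.4%), against 15.2% of all genes, and above the inverse of 0.8 for none of them, against 20.1% of all genes. At 1.5-fold, 5 of the 74 were lower, against 4.81% of all genes, and 0 were higher, against 7.26%. None of the 74 passed 2-fold, against 2.40% of all genes. The counting interval lay below 1 for 53 of the 74 genes, against 8.52% of all genes, and above 1 for none, against 12.0%. The SD of the log2 ratios was 0.18, against 0.41 over all genes.

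Rpl35, a large subunit protein beside the exit of the peptide tunnel, had the lowest ratio here. It had 514 TPM in wild type, 310.0 in miR-26a KO, 366.5 in Cart-miR-23clus KO and 366.5 in the mimic library. Its ratio in miR-26a KO was 0.603 (0.519 to 0.699). Among members with 100 or more reads, Rpl10a followed with 0.614 (0.478 to 0.785) and Rpl10 with 0.651 (0.571 to 0.741). Rpl35 shared 95.6% of its 75-base runs with other genes and Rpl10a 85.8%, and 22.2% of the wild type reads on Rpl10a and its pseudogenes lay on the pseudogenes, so both ratios are uncertain. Rps12, a small subunit protein through which fly tissues recognise cells short of ribosomal proteins, had 846, 559, 703 and 671 TPM in the same order of libraries. Its ratio was 0.6605 (0.563 to 0.774), on a gene that shares all of its runs and whose 24 pseudogenes held 306 reads in wild type.

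The highest ratios among members with 100 or more reads were close to 1. Rps25 had a ratio of 1.013 (0.9503 to 1.079), Rpl18 of 0.999 (0.902 to 1.106), Rpl11 of 0.989 (0.932 to 1.05) and Rpl3 of 0.984 (0.896 to 1.08). Rpl18, a large subunit protein and Diamond-Blackfan gene, had 255 TPM in wild type, 255 in miR-26a KO, 246 in Cart-miR-23clus KO and 259 in the mimic library, so its 4 levels lay close together. Rpl3, which reaches to the peptidyl transferase centre, had 685, 674, 611 and 678 TPM. Rps25 and Rpl11 stood at the top of both comparisons with wild type, which share that library.

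Among members, those with more reads tended to lie nearer to wild type. The Spearman correlation of the log2 ratio with mean reads was 0.46 over 74 genes in Cart-miR-23clus KO and 0.47 over 74 genes in miR-26a KO. After the mimic it was -0.39 over 75 genes. These points share their libraries, and the mean reads include the reads of the ratio. With the share of shared runs the Spearman correlation was -0.01, -0.24 and 0.10 in the 3 comparisons. In Cart-miR-23clus KO the median ratio was 0.864 for members without shared runs and 0.852 for those with them. In miR-26a KO these medians were 0.892 and 0.858.

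**Figure D5:**
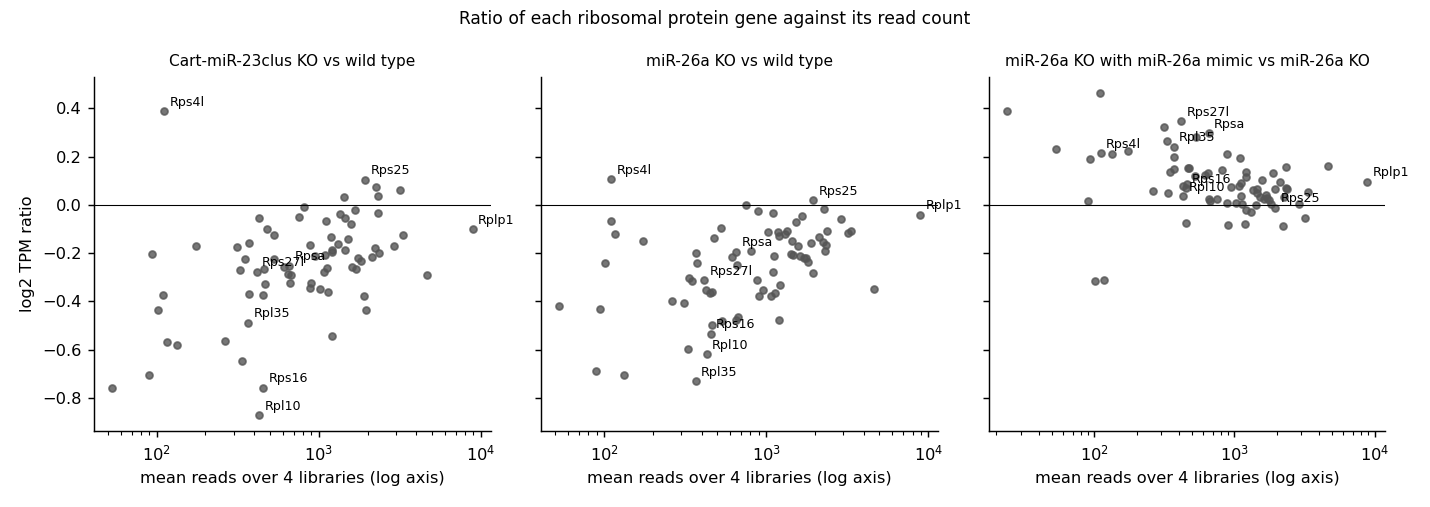
Log2 TPM ratio of each ribosomal protein gene against its mean reads over the 4 libraries (log axis) in the 3 comparisons. In both comparisons with wild type the points below -0.5, apart from Rpl39, are genes with 69 to 633 wild type reads, while Rplp1 and Rps25 lie near 0.

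The other pairs of libraries show which library the lower ratios came with. With Cart-miR-23clus KO set over miR-26a KO, the median log2 ratio of the 74 ribosomal protein genes was -0.0035, with 37 genes higher and 37 lower. Between the mimic library and wild type it was -0.16, with 62 of 74 genes lower in the mimic library. Between Cart-miR-23clus KO and the mimic library it was -0.07, with 48 of 74 lower in Cart-miR-23clus KO. Over all genes tested, the medians of these 3 pairs were -0.05, 0.03 and -0.03 in the same order. Wild type held the highest TPM of 59 of the 77 genes with reads, miR-26a KO the lowest of 35 and Cart-miR-23clus KO the lowest of 33. With 1 library per condition, a lower level with either deletion cannot be told apart from a wild type library that is high in these genes.

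The comparison of the mimic library with miR-26a KO asks what giving back miR-26a does to cells that lack it. Of 75 genes with 20 or more reads in both, 65 had a higher TPM with the mimic. The median log2 ratio was 0.07 (quartiles 0.02 and 0.15), a ratio of 1.05, against -0.01 over 7110 genes. The TPM ratio was above the inverse of 0.8 for 3 of the 75 (4%), against 12.0% of all genes, and below 0.8 for none, against 13.6%. At 1.5-fold, 0 of the 75 were higher, against 2.66% of all genes, and 0 were lower, against 3.19%. None of the 75 passed 2-fold, against 0.380% of all genes. The counting interval lay above 1 for 15 of the 75 genes, against 5.18% of all genes, and below 1 for 1 gene, against 5.57%. Of these 15 genes, 11 were of the 31 small subunit genes and 4 of the 44 large subunit genes tested. The median ratios were close, at 1.054 for the small and 1.047 for the large subunit. Median wild type reads were 1304 for small and 753.5 for large subunit genes, and more reads give narrower intervals.

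The highest ratios on 100 or more reads were those of Rps27l, Rpl22l1, Rpsa and Rps3a1. Rpsa, the small subunit protein also known as the laminin receptor, had 359 TPM in wild type, 314 in miR-26a KO, 301 in Cart-miR-23clus KO and 385 in the mimic library. It was thus highest after the mimic, with a ratio to miR-26a KO of 1.229 (1.101 to 1.371). Rps3a1, a small subunit protein, had 636, 455, 545 and 553 TPM, with a ratio of 1.215 (1.068 to 1.382). Rpl17, a large subunit protein at the tunnel exit, had the ratio farthest above 1, 1.378 (1.06 to 1.797), on 146 and 99 reads. Rpsa, Rpl22l1, Rps3a1 and Rpl17 shared 71.2, 58.85, 55.75 and 51.3% of their 75-base runs with other genes, so their ratios are uncertain. Rps27l shared 13.3%. The interval lay above 1 for 13 of 53 members with shared runs and for 2 of 21 without.

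On 100 or more reads, the lowest ratios were those of Rpl7l1, Rpl4, Rpl26 and Rpl13. Rpl4, whose long loop lines the peptide tunnel, had 1613 TPM in wild type, 1451 in miR-26a KO, 1427 in Cart-miR-23clus KO and 1364 in the mimic library. It was the member whose interval lay below 1, at a ratio of 0.9401 (0.885 to 0.999). Rpl26, which also binds the p53 mRNA, had a ratio of 0.945 (0.856 to 1.04) and Rpl13 of 0.9475 (0.872 to 1.029). Both intervals included 1.

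The 3 stalk proteins differed in size of ratio. Rplp0, the base of the stalk, lies at chr5:115559467-115563727 and had 1682.5 TPM in wild type, 1383 in miR-26a KO, 1242 in Cart-miR-23clus KO and 1447 in the mimic library. Its ratio to wild type was 0.7385 (0.693 to 0.787) in Cart-miR-23clus KO and 0.822 (0.773 to 0.8745) in miR-26a KO. Rplp2 had 2627, 2440.5, 2287 and 2555 TPM, with ratios of 0.8705 (0.822 to 0.922) and 0.929 (0.878 to 0.983). Rplp1, given above, had ratios of 0.932 and 0.972, so the intervals of Rplp0 and Rplp1 did not overlap in either comparison. After the mimic all 3 lay close together, at ratios of 1.05 (Rplp0), 1.07 (Rplp1) and 1.05 (Rplp2).

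Of 7 paralogues, copies that can replace a core protein in some tissues, 4 had enough reads to be compared with wild type. With either deletion 3 of these 4 were lower, and Rps4l, given above, was higher. Their median ratios were 0.855 with the clusters deleted and 0.860 without miR-26a, against 0.857 and 0.862 over all ribosomal protein genes. Rpl39l, the paralogue of the tunnel protein Rpl39 best known from testis, had 11 reads in wild type, 30 in miR-26a KO, 12 in Cart-miR-23clus KO and 42 in the mimic library, or 19.1, 57.3, 23.0 and 75.0 TPM. Both libraries without miR-26a alleles thus stood above the other two. Its ratio of miR-26a KO to wild type was 2.995 (1.459 to 6.624), although its 11 wild type reads are under the 20 asked for in that comparison, and the mimic library was at 1.308 (0.7995 to 2.164) times miR-26a KO. Rpl39 itself had 2535, 1821, 1741 and 1796 TPM, with ratios to wild type of 0.718 (0.664 to 0.776) in miR-26a KO and 0.687 (0.634 to 0.743) in Cart-miR-23clus KO.

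Rpl22l1, the paralogue of Rpl22, had 636 TPM in wild type, 479.9 in miR-26a KO, 563 in Cart-miR-23clus KO and 599.6 in the mimic library. Its ratio was 0.754 (0.6398 to 0.888) in miR-26a KO and 1.249 (1.058 to 1.477) after the mimic. Rpl22 had 2415, 2243.5, 2353 and 2341 TPM, and its miR-26a KO ratio was 0.929 (0.861 to 1.003). Rps27l, a paralogue of Rps27 that p53 can induce, had 913, 735, 754 and 935 TPM, with ratios of 0.805 (0.699 to 0.926) in miR-26a KO, 0.826 (0.718 to 0.949) in Cart-miR-23clus KO and 1.272 (1.105 to 1.464) after the mimic. Rps27 had 3030.3, 2356, 2357 and 2359.8 TPM, so the 3 libraries below wild type lay close together. Rpl7l1, a factor of early large subunit assembly, had 54.0, 49.6, 36.4 and 39.95 TPM. Its ratio was 0.674 (0.513 to 0.882) in Cart-miR-23clus KO and 0.805 (0.615 to 1.053) after the mimic.

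The 4 X-linked members all had a lower TPM with either deletion. Rps4x, a small subunit protein, had 420.2 TPM in wild type, 365.5 in miR-26a KO, 325 in Cart-miR-23clus KO and 419 in the mimic library. Its ratio to wild type was 0.774 (0.666 to 0.899) in Cart-miR-23clus KO and 0.8699 (0.752 to 1.005) in miR-26a KO. Rpl36a, a large subunit protein, had 3193, 2879, 3079 and 2981 TPM, with ratios of 0.964 (0.897 to 1.04) and 0.902 (0.838 to 0.9705). With Rpl10 and Rpl39 given above, the 4 genes had a median ratio of 0.729 with the clusters deleted and 0.7904 without miR-26a. The same figures over all ribosomal protein genes were 0.857 and 0.862.

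The 19 genes of Diamond-Blackfan anaemia among the members had a median ratio of 0.864 with the clusters deleted, 0.864 without miR-26a and 1.05 after the mimic. They were lower in 16 of 19, lower in 19 of 19 and higher in 17 of 19 genes, where 68 of 74, 72 of 74 and 65 of 75 of all ribosomal protein genes were. Of all genes compared, 51.0% were lower in the first comparison and 45.3% in the second. After the mimic, where the counts above are of genes that were higher, 51.7% of all genes were lower. The 11 members linked to Mdm2 or p53 had medians of 0.864, 0.7855 and 1.02 in the same order, with 2 of 11, 7 of 11 and 0 of 11 below 0.8, where 21.1, 15.2 and 13.6% of all genes lay. Rpl5, Rpl11, Rpl26, Rps7, Rps20 and Rps27 stand on both lists.

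Genes that work with the ribosome were set beside its proteins, each list with 20 or more reads in both libraries. Of 30 translation factors and other genes with TOP mRNAs, 28 could be compared in Cart-miR-23clus KO, with a median TPM ratio of 0.884, 7 genes below 0.8 and 1 above its inverse. All genes compared had 21.1% below 0.8 and 20.2% above its inverse with the clusters deleted, 15.2% and 20.1% without miR-26a, and 13.6% and 12.0% after the mimic, which is the background for the counts of every list here. The lowest were the small nucleolar RNA hosts Snhg5 (0.436), Snhg12 (0.552) and Gas5 (0.593), and the highest were Vim (1.304), the poly(A) binding protein Pabpc1 (1.22) and the elongation factor Eef1d (1.199). In miR-26a KO the median over 27 genes was 0.926, with 9 below 0.8 and 2 above its inverse. Snhg5 (0.572), Tpt1 (0.652) and Snhg1 (0.656) were lowest, and Vim (1.762), Pabpc1 (1.325) and the translocase Eef2 (1.097) highest. After the mimic the median was 1.02 over 27 genes, from Gas5 (0.837), Eif3e (0.856) and Eif4a2 (0.884) to Eif3l (1.265), Snhg5 (1.289) and Eef1a1 (1.317). Of these, only the intervals of Gas5 (0.789 to 0.8885) and Eif3l (1.003 to 1.599) left out 1. Eef1a1 rested on 62 and 44 reads and Snhg5 on 69 and 50.

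The 25 initiation factors, which bring the small subunit to the mRNA, had median ratios of 0.8998 with the clusters deleted, 0.995 without miR-26a and 1.013 after the mimic. In Cart-miR-23clus KO 7 lay below 0.8 and 1 above its inverse, in miR-26a KO 1 and 1, and after the mimic 2 and 1, against the same shares of all genes. Eif5a stood among the lowest with either deletion, at 0.633 (0.554 to 0.722) in Cart-miR-23clus KO and 0.746 (0.658 to 0.846) in miR-26a KO, and at 1.165 (1.023 to 1.327) after the mimic. Eif2s2 had the highest ratio in Cart-miR-23clus KO, 1.305 (1.191 to 1.43), and Eif4g1 in miR-26a KO, 1.462 (1.252 to 1.708).

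Of 63 ribosome biogenesis factors, 54 could be compared in Cart-miR-23clus KO (median 0.949, 15 below 0.8 and 8 above its inverse), 55 in miR-26a KO (0.974, 8 and 9) and 54 after the mimic (1.052, 5 and 10), to be read against those shares too. Nop10, a protein of the complex that makes pseudouridine in ribosomal RNA, had a ratio of 1.475 (1.257 to 1.733) in Cart-miR-23clus KO. Nop56, of the complex that methylates ribosomal RNA, had one of 0.557 (0.364 to 0.838) in miR-26a KO on 37 and 73 reads. Wdr12, a factor of large subunit assembly, was highest with either deletion, at 1.86 (1.152 to 3.054) and 1.969 (1.227 to 3.217), on 29 wild type reads. Of 22 regulators of mTORC1 and TOP mRNAs, 17 had a median of 0.9175 with the clusters deleted and 1.007 without miR-26a, and 18 had one of 0.947 after the mimic. With the clusters deleted 6 lay below 0.8 and 3 above its inverse, without miR-26a 2 and 1, and after the mimic 3 and 2, against the same shares. Eif4ebp2, a repressor of cap-dependent initiation, had a ratio of 1.497 (1.244 to 1.803) in Cart-miR-23clus KO, and Larp1, which binds TOP mRNAs, one of 1.206 (1.044 to 1.394) in miR-26a KO. The lowest were Tia1 at 0.606 (0.409 to 0.8855) in Cart-miR-23clus KO and Maf1 at 0.541 (0.348 to 0.827) in miR-26a KO.

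The 78 mitochondrial ribosomal proteins, which serve the separate ribosome of that organelle, had a median ratio over 68 genes of 0.938 with the clusters deleted, 0.943 without miR-26a and 0.958 after the mimic. With the mimic their median thus lay below 1, where the cytoplasmic proteins had a median of 1.05. Mrpl15 was lowest with either deletion, at 0.532 (0.361 to 0.774) and 0.494 (0.331 to 0.7245), and highest after the mimic, at 1.729 (1.161 to 2.607), on 40 to 89 reads.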

How the data were processed

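RNA from 4 libraries of cultured articular chondrocytes, 1 per condition, was sequenced from the 3′ end with single reads of 75 bases. Per the labels and the study's methods, the authors applied no filter on low quality, mapped reads to the mouse genome (GRCm38.p6, mm10) and deposited estimated counts per gene for 3 libraries. The deposited TPM values, which the authors normalised by transcript length and to a fixed total per library, cover all 4 libraries. The aligner and counter were not given in the sources used here. Reads of the mimic library were recovered from its TPM: 14429 of 14429 values were whole within 0.001 reads, and 588 genes were not recovered. Library totals on genes ran from 1336496 to 1505805 reads.

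Members were chosen by symbol. The members and gene lists were chosen with earlier results of these data known. Ratios were those of TPM, for genes with 20 or more reads in both libraries, with exact Clopper-Pearson 95% intervals. Reads carried no molecular identifiers and are not independent molecules, so intervals and floors (3 reads) cover counting error only. With 1 library per condition, no test was made and no p-value is given. Named members were the 5 highest and 5 lowest by mean TPM, the 4 highest and 4 lowest ratios of each comparison on 100 or more reads, stalk proteins, paralogues, X-linked members, Rpsa, members without reads, the 3 highest and 3 lowest of each translation list (named in part) and the 5 most read pseudogenes. Rpl5, Rpl17, Rpl34, members with a seed match and a few others were named after their values were seen. Shared runs, seed matches and start motifs were searched in GENCODE transcripts and RefSeq windows on GRCm38.p6. Alternatives were another read minimum, pseudocounts of 0.5 and 1, a 1.5-fold limit, scaling by edgeR (TMM) and DESeq2 size factors, other denominators and other member sets. Values of a few genes, and a planned setting that adds genes to the members, are not reported here. Scripts were tested on simulated data and used Python 3.11.15, pandas 2.3.3, scipy 1.17.1, R 4.3.3, edgeR 4.0.16 and DESeq2 1.42.0.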

Additional observations from a re-analysis of the deposited data

How the results depend on the processing

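The direction of the median ratio was the same in all 3 comparisons under every scale, filter and member set tried, and 33 of its alternative values differed by less than the spread among members. The choice of library moved the value more than these settings did. Cart-miR-23clus KO had a median log2 ratio of -0.22 with wild type as the base. It was -0.0035 once miR-26a KO served as the base, and -0.065 with the mimic library as the base. Both replacements were added after seeing the data, as were the settings on shared runs and on genes with several names. No paired analysis was possible because there were no replicates, and none could be left out.

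Shares are given in the order wild type, miR-26a KO, Cart-miR-23clus KO and mimic library. They were 7.92, 6.87, 6.99 and 7.275% without the 10 most read other genes, 7.09, 6.25, 6.52 and 6.61% without mitochondrial genes, and 7.06, 6.24, 6.41 and 6.59% with pseudogenes. They were 7.60, 6.68, 6.82 and 7.06% with the 6 genes of several names, and 15.7, 13.7, 14.0 and 14.45% in summed TPM. Wild type was highest and miR-26a KO lowest in each of these.

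The count above the inverse of 0.8 in Cart-miR-23clus KO against wild type was 2 with any TPM above 0, and 0 without paralogues, at 1.5-fold or without members that share runs. In miR-26a KO it was 1 with any TPM above 0. After the mimic it was 1 with 100 or more reads, 1 without paralogues, 1 without members that share runs and 0 at 1.5-fold. The count below 0.8 was 5 of 74 at 1.5-fold in each comparison with wild type, where 7.93% (Cart-miR-23clus KO) and 4.81% of all genes lay. Among members without shared runs it was 7 of 20 with the clusters deleted, against 21 of all 74, and 4 of 20 without miR-26a, against 24 of all 74. Of all genes, 21.1% lay below 0.8 in the first comparison and 15.2% in the second. Against all 74 members the share was thus higher in the first and lower in the second. These counts rest on 20 genes, which the 74 include, and the cause was not tested. Depth limits members under 100 reads, whose intervals are wide.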
